A study of Mus musculus with 2 samples.

Results

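Barcodes with more than 4000 genes were removed from the study's single-cell RNA-seq of the mouse spinal cord as potential doublets, that is, droplets that captured 2 cells. The content of these barcodes is described here. Members were chosen by 3 conditions: more than 4000 genes with at least 1 UMI (a unique molecular identifier, which tags 1 captured RNA molecule), under 10% of UMIs from mitochondrially encoded genes, and, in the library labelled SMA, a barcode not also listed in the library labelled Con. There were 1276 such barcodes among 52340 in all. The library labelled SMA held 459 of them (1.70% of its 26921 barcodes) and the library labelled Con held 817 (3.21% of 25419).

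Whole spinal cords of FVB mice had been taken at postnatal day 4. SMA mice were mSmn-/-, hSMN22tg/0 (no intact mouse Smn1 and the human SMN2 transgene, the severe Taiwanese model of spinal muscular atrophy), and Con mice were heterozygous littermates, mSmn+/-, hSMN22tg/0, which carry the same transgene. Animals were pooled into 1 library per group, so the spread between replicates is unknown, no test between the libraries was made, and each interval below is a 95% interval for counting error only. PCR, pooling and droplet effects are not in these intervals.

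Members of the library labelled SMA had 10147 to 84077 UMIs (median 19025) and up to 7522 genes (median 4391). Those of the library labelled Con had 9937 to 108806 UMIs (median 19471) and up to 8466 genes (median 4523). The median mitochondrial share was 5.11% and 5.93%. Of the 817 Con members, 816 had a barcode that occurs in the SMA library too. In these copies the SMA library held a median of 17.7% as many UMIs as the Con library, with a 5th to 95th percentile of 16.7 to 18.8%. Xist, the RNA that silences 1 X chromosome in female cells, stood at 421.7 CPM (UMIs of a gene in each 1000000 UMIs) in the copies, 439.8 CPM in the Con members and 2.23 CPM in the SMA members. The SMA members exclude all barcodes shared with the Con library, which removed 8 that otherwise passed. Smn1, the targeted gene (ENSMUSG00000021645, chromosome 13 of GRCm38 from 100124852 to 100137690, on the plus strand), was read as 418 UMIs in SMA and 774 in Con members, at 46.6 and 44.6 CPM, a log2 ratio of 0.07 (-0.11 to 0.24). It therefore did not separate the libraries, and whether its counted 3′ tag lies in the altered part of the gene was not tested.

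As background, a droplet that takes up 2 cells of different kinds carries the RNA of both, and it tends to show more genes than either cell alone. Large or highly active cells also give many UMIs and many genes. Dividing cells hold more RNA towards mitosis. Oligodendrocytes, which wrap axons in myelin, arise from dividing oligodendrocyte precursor cells (OPCs) through a committed precursor stage (COPs) that has left the cell cycle, and in the mouse cord the first myelin is laid down around birth and in the first postnatal days. Endothelial cells line the vessels that grow into the cord at the same time.

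Each barcode was thinned at random to 5000 UMIs, so that deep and shallow barcodes could be read alike, and was then read against marker lists of 16 classes in 9 lineages. A class was called held where at least 3 of its markers had a UMI and their summed UMIs reached 20% of the median in barcodes of up to 4000 genes that held that class alone. Names below carry "-like", since they rest on these markers. Oligodendrocyte-like barcodes held the mature oligodendrocyte list (Mog, Mobp and 6 others) and no other lineage, and OPC/COP-like barcodes held OPC or COP markers without it. As comparison served 1204 SMA and 1795 Con barcodes of 3000 to 4000 genes, which passed the same mitochondrial limit and are called the band.

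Most members held markers of a single lineage. This was so for 309 of 459 SMA members (67.3%, 62.8 to 71.6) and 561 of 817 Con members (68.7%, 65.4 to 71.8). Members with 2 or more lineages were 147 (32.0%, 27.8 to 36.5) and 254 (31.1%, 27.9 to 34.4). The share with several lineages rests on the limit of 20% and was 38.6% (SMA) and 37.7% (Con) at a limit of 10%, and 12.2% and 11.9% at 40%. None held 4 lineages, 12 and 15 held 3, and 3 and 2 held none. The gene limit thus took out more barcodes of 1 lineage than of several in each library. A single lineage is not always a single class. Of members with the oligodendrocyte lineage alone, 234 SMA and 398 Con, the classes were counted too. Mature oligodendrocyte markers only were held by 97 and 127, OPC markers only by 36 and 31, and COP markers only by 17 and 74. The others held 2 or 3 of these classes.

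The share with 2 or more lineages rose with the number of genes. It was 4.42% (SMA) and 5.05% (Con) at 2000 to 3000 genes, 17.9% (15.8 to 20.2) and 13.7% (12.1 to 15.4) in the band, and then the 32.0% and 31.1% of the members. Barcodes of 2000 to 3000 genes are read here and below only where they had at least 5000 UMIs. Barcodes next to the limit are too few to show whether a step lies there. At 4001 to 4100 genes, 14 of 61 SMA (23.0%, 13.2 to 35.5) and 30 of 92 Con barcodes (32.6%, 23.2 to 43.2) held 2 or more lineages. Just under the limit, at 3901 to 4000 genes, 19 of 60 (31.7%, 20.3 to 45.0) and 23 of 94 (24.5%, 16.2 to 34.4) did. The order differed between the libraries, and the intervals overlap.

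**Figure D1:**
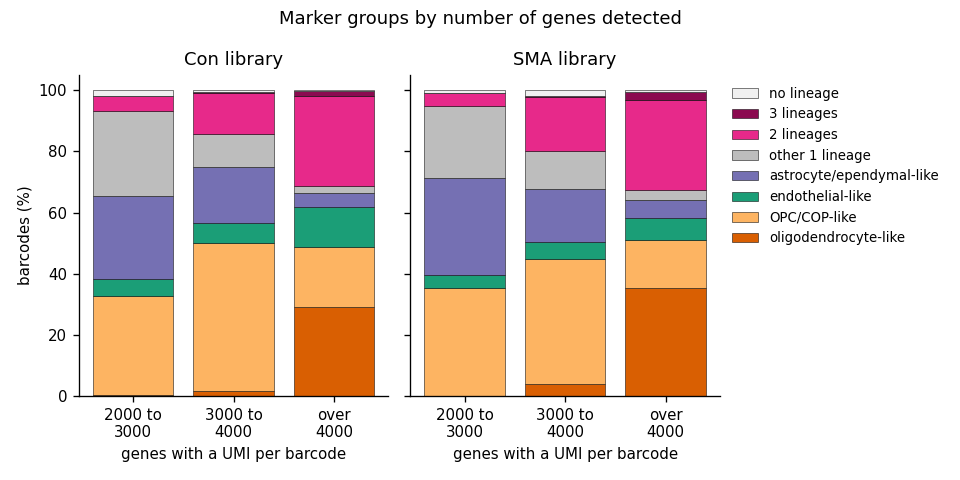
Share of barcodes (%, vertical axis) in each marker group, stacked, for barcodes of 2000 to 3000, 3000 to 4000 and over 4000 genes (horizontal axis) of the Con library (left) and the SMA library (right). Only barcodes of at least 5000 UMIs are shown. The oligodendrocyte-like part grows from under 1% to 29.0% and 35.3%, and the part with 2 lineages reaches 29.3% and 29.4%.

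The largest single-lineage group was oligodendrocyte-like. It made up 162 SMA members (35.3%, 30.9 to 39.9) and 237 Con members (29.0%, 25.9 to 32.3), against 4.15% and 1.84% of the band and 0.188% and 0.256% of barcodes of 2000 to 3000 genes. Of all oligodendrocyte-like barcodes with at least 5000 UMIs, 162 of 218 in the SMA library (74.3%, 68.0 to 80.0) and 237 of 281 in the Con library (84.3%, 79.6 to 88.4) lay over 4000 genes. Over all barcodes of that depth the share was 8.66% of 5300 and 12.3% of 6660. A limit of 4000 genes therefore removed most deep barcodes with mature oligodendrocyte markers from both libraries. The limit also removed more of them, as a share, in the Con library than in the SMA library, by intervals that overlap slightly.

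Levels of 3 listed markers describe the oligodendrocyte-like members, which the list itself had chosen. Mobp, a myelin protein gene (chromosome 9, 120149707 to 120181484, plus strand), stood at 5177 CPM in SMA and 5746 CPM in Con oligodendrocyte-like members, against 248 and 502 CPM in OPC/COP-like members. Mog, the gene of a glycoprotein on the outer face of myelin (chromosome 17, 37010743 to 37023398, minus strand), stood at 2733 and 2731 CPM, against 33.9 and 73.5 CPM. Ermn, a cytoskeletal gene of the myelin sheath (chromosome 2, 58045113 to 58052864, minus strand), stood at 549 and 489 CPM against 2.68 and 3.24 CPM. In an SMA barcode of near median depth, with 21115 UMIs and 4348 genes, all 8 listed markers were found, with 104 UMIs of Mobp, 94 of Mog and 19 of Ermn. A Con barcode chosen in the same way, with 23655 UMIs and 4491 genes, held 6 of the 8, with 139 UMIs of Mobp and 18 of Mog, and 59 UMIs over 5 COP markers. Genes outside the marker lists that led the group included Mal, a lipid-raft protein of myelin (2757 and 2137 CPM), Gsn, which severs actin filaments (1881 and 2638 CPM), and Gjb1, the gap-junction protein connexin 32 (354 and 334 CPM). In the other 3 single-lineage groups of members, Mal was at 48.4 and 43.9 CPM.

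These members were deep rather than rich in kinds of RNA. Their median depth was 21536 (SMA) and 23289 (Con) UMIs, against 15100 and 16895 in OPC/COP-like members. At 5000 UMIs per barcode they showed a median of 1975 and 1987 genes, against 2328 and 2218 in OPC/COP-like members and 2231 and 2252 in members with 2 lineages. In the plot of genes against UMIs they form a flatter arm of fewer genes for the same depth.

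**Figure D2:**
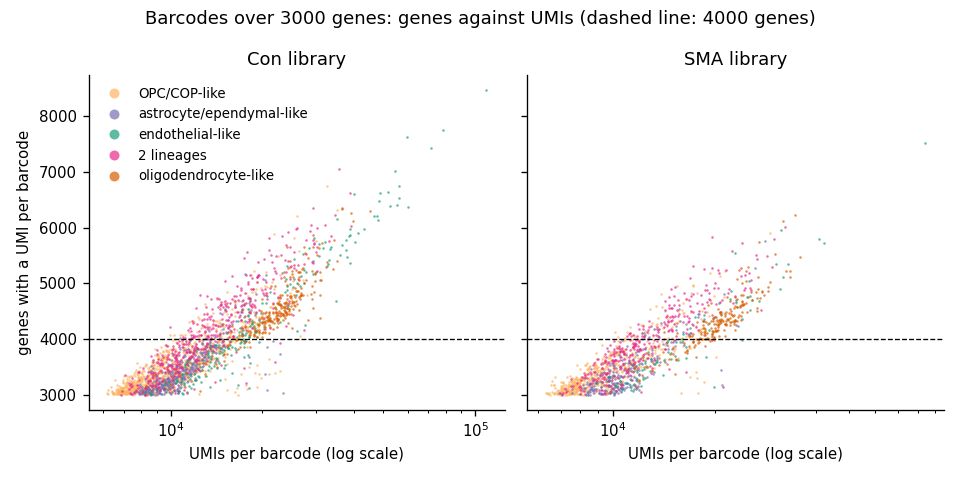
Genes with a UMI (vertical axis) against UMIs (horizontal axis, log scale) for barcodes over 3000 genes of the Con library (left) and the SMA library (right), 1 point a barcode, coloured by marker group; the dashed line marks 4000 genes. Oligodendrocyte-like barcodes lie to the right at a given number of genes, with fewer genes for their UMIs than those with 2 lineages, and endothelial-like barcodes reach 8466 genes in the Con library.

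OPC/COP-like barcodes were 72 SMA members (15.7%, 12.5 to 19.3) and 161 Con members (19.7%, 17.0 to 22.6), and they were the main group of the band, at 40.5% and 48.3%. The limit took 4.26% and 7.85% of the deep OPC/COP-like barcodes. Within the oligodendrocyte lineage the kinds differed between the libraries. Of 234 SMA members of this lineage alone, 36 held OPC markers only, 19 held OPC and COP markers, and 17 held COP markers only. Of 398 such Con members these were 31, 56 and 74. COP together with mature oligodendrocyte markers, without OPC markers, were found in 52 (22.2%) and 88 (22.1%), and all 3 kinds in a further 4 and 11. OPC together with mature oligodendrocyte markers, without COP markers, were found in 9 (3.85%) and 11 (2.76%). In the band these were 1 of 538 SMA and 2 of 900 Con barcodes of this lineage alone. Bcas1, which marks early myelinating oligodendrocytes and their committed precursors, stood at 965 CPM in SMA and 1883 CPM in Con OPC/COP-like members. Pdgfra, the growth factor receptor of OPCs, stood at 226 and 115 CPM.

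Endothelial-like barcodes were 34 SMA members (7.41%, 5.18 to 10.2) and 108 Con members (13.2%, 11.0 to 15.7), a log2 ratio of shares of -0.84 (-1.44 to -0.27). In the band they were 69 and 113 barcodes, with a log2 ratio of -0.14 (-0.59 to 0.31). The limit took 13.9% (9.81 to 18.8) of deep endothelial-like barcodes in the SMA library and 27.3% (23.0 to 32.0) in the Con library. The deep endothelial-like barcodes had a median of 8171 UMIs in the SMA library and 11068 in the Con library, and the part of depth in this gap was not tested. Cldn5, the tight-junction protein of the blood-brain barrier (chromosome 16, 18776847 to 18778262, plus strand), stood at 2586 and 2952 CPM in them. Genes outside the lists that led the group included Slc22a8, an organic anion transporter of barrier vessels (255 and 392 CPM), Foxq1, a transcription factor (253 and 241 CPM), and Icam2, an endothelial adhesion molecule (372 and 325 CPM). The barcodes with most genes in each library were endothelial-like. The one in the Con library had 8466 genes and 108806 UMIs, with 289 UMIs of Cldn5. It had 200 UMIs over all 20 G2 and mitosis genes and 159 over 19 of 20 S phase genes. The one in the SMA library had 7522 genes and 84077 UMIs, with 214 UMIs of Cldn5 and UMIs of all 10 endothelial markers. It had 8 UMIs over 7 of the G2 and mitosis genes and 33 over 12 of the S phase genes.

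Astrocyte/ependymal-like barcodes were 26 SMA members (5.66%) and 36 Con members (4.41%), against 17.4% and 18.3% of the band, and the limit took 2.06% and 2.91% of the deep ones. Gfap, the intermediate filament protein of astrocytes, led the genes outside the lists, at 1151 and 2170 CPM. A further 15 SMA and 19 Con members held another single lineage. In the SMA library these were 7 myeloid, 4 neuronal and 4 mural or fibroblast members, and in the Con library 6 Schwann, 6 myeloid, 4 mural or fibroblast and 3 neuronal members. The limit took 0.860% and 0.822% of deep barcodes of the myeloid lineage alone. Barcodes of the neuronal lineage alone were rare among those of at least 5000 UMIs, and the limit took 4 of 41 and 3 of 29 of them.

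**Figure D3:**
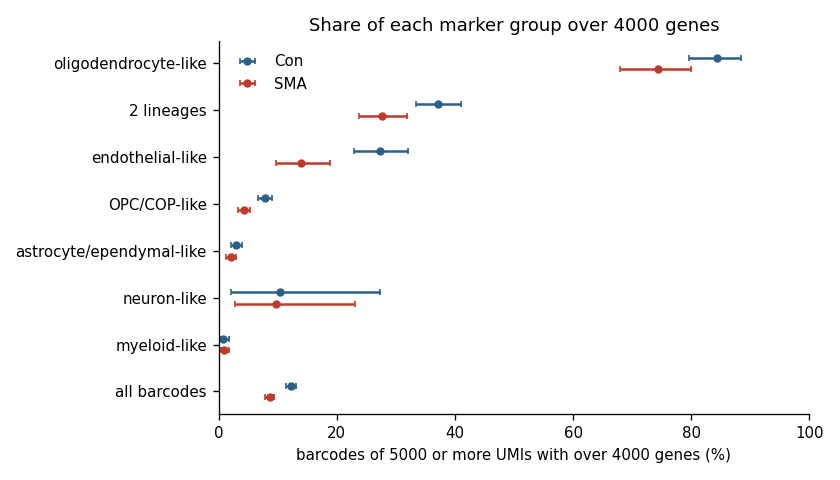
Share (%, horizontal axis) of barcodes with at least 5000 UMIs that lie over 4000 genes, by marker group (vertical axis), in the Con library (blue) and the SMA library (red); bars are exact 95% binomial intervals for counting error. Oligodendrocyte-like barcodes stand at 84.3% and 74.3%, and the other single-lineage groups at 27.3% or less.

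Members with 2 lineages numbered 135 (SMA) and 239 (Con), 29.4% and 29.3% of the members, a log2 ratio of shares of 0.01 (-0.31 to 0.32). The pair of an astrocyte or ependymal class with the oligodendrocyte lineage came first in each library, with 59 of 135 (43.7%, 35.2 to 52.5) and 102 of 239 (42.7%, 36.3 to 49.2). Oligodendrocyte lineage with myeloid markers followed, with 22 (16.3%) and 36 (15.1%). Next were astrocyte or ependymal with myeloid markers, 17 and 14, and oligodendrocyte lineage with endothelial markers, 11 and 30. In all 13 and 17 kinds of pair were found.

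The rule asks for at least 3 markers of each class, and single barcodes of near median depth for their pair show what such members hold. An SMA member with 14572 UMIs held all 10 astrocyte markers, with 51 UMIs of Aldoc, a glycolytic enzyme of astrocytes, and all 8 OPC markers, with 10 UMIs of Olig1, a transcription factor of the oligodendrocyte lineage. A Con member of this pair with 14373 UMIs held 6 of 10 astrocyte markers, with 28 UMIs of Aldoc, and 6 of 8 OPC markers, with 7 UMIs of Olig1. An SMA member with 15298 UMIs held 7 of 8 OPC markers, with 14 UMIs of Lhfpl3, and all 8 microglia markers, with 19 UMIs of C1qa, a complement gene, and 11 of P2ry12, the purine receptor of resting microglia. A Con member with 15467 UMIs held 6 of 8 OPC markers and 7 of 8 microglia markers, with 47 UMIs of C1qa.

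Genes outside the marker lists were read next, since the lists themselves had chosen these members. For each class, the 30 further genes with the highest ratio in barcodes under the limit were summed at 5000 UMIs per barcode. Pairs of classes with at least 10 members were read. The pairs with at least 10 members were 3 in the SMA library and 6 in the Con library. Each level is given as a share of the median in members of 1 lineage that hold the class, and then of the median in barcodes under the limit of 1 lineage that hold it. The first reference rests on 6 microglia-holding members in each library and on 22 or more members for the other classes. The second rests on 287 or more barcodes. Barcodes of 1 lineage that hold a class can hold other classes of that lineage too, so neither reference is limited to a single class. For OPC genes the median was 29.5 (SMA) and 27 (Con) UMIs in the first reference and 41 and 40 in the second.

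In 28 SMA members with astrocyte and OPC markers, the 30 astrocyte genes (Gfap, Slc7a10 and Slc4a4 first) had a median of 69 UMIs, which was 69.0% of the first reference and 53.9% of the second, and the 30 OPC genes stood at 83.1% and 59.8%. Each was low in the other single class, with astrocyte genes at 6% in OPC-holding members and OPC genes at 15.3% in astrocyte-holding members, and at 5.26% and 22.2% in the Con library. In 47 Con members of this pair astrocyte genes stood at 84.2% and 59.7% and OPC genes at 81.5% and 55.0%. In 15 SMA members with OPC and microglia markers, OPC genes stood at 78.0% and 56.1% and microglia genes at 73.8% and 56.5%. In 20 such Con members OPC genes stood at 68.5% and 46.3% and microglia genes at 69.5% and 50.3%, where OPC genes stood at 16.7% of the first reference in microglia-holding Con members. In 10 SMA members with astrocyte and microglia markers, astrocyte genes stood at 77.5% and 60.5% and microglia genes at 73.5% and 56.3%. In these pairs both sets of genes were thus below the level of a single class, by either reference.

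Pairs with endothelial or COP markers reached 10 members in the Con library alone. In 10 members with OPC and endothelial markers, endothelial genes stood at 100.3% and 74.6% and OPC genes at 81.5% and 55.0%. In 12 members with astrocyte and endothelial markers, endothelial genes stood at 88.6% and 65.9% and astrocyte genes at 68.4% and 48.5%. In 16 members with astrocyte and COP markers, COP genes stood at 50.8% and 114% and astrocyte genes at 47.4% and 33.6%. In 11 members with COP and endothelial markers, COP genes stood at 38.7% and 87.0% and endothelial genes at 62.1% and 46.2%. The level of COP genes turned on the reference, whose median was 243 UMIs in COP-holding members and 108 in COP-holding barcodes under the limit.

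Xist and genes of the Y chromosome gave a measure that used no cell type marker. Pooled animals of both sexes can only give both in 1 barcode if RNA of more than 1 animal is in it. The SMA members, which leave out the barcodes shared with Con, carried almost no Xist. They had 20 UMIs of it, 19 of them in 2 oligodendrocyte-like barcodes. At 5000 UMIs, 1 of 459 SMA members (0.218%) had UMIs of Xist and of a Y gene (Ddx3y, Eif2s3y, Kdm5d or Uty). In the Con library both were found in 43 of 254 members with 2 or more lineages (16.9%, 12.5 to 22.1) and in 34 of 561 members with 1 lineage (6.06%, 4.23 to 8.37). Without thinning these shares were 41.3% and 15.8%, and at 3000 UMIs 9.91% and 4.34%. In the band they were, at 5000 UMIs, 13.4% (9.42 to 18.3) and 2.02% (1.38 to 2.85). Over all Con barcodes of up to 4000 genes and at least 5000 UMIs they were 11.3% and 1.55%.

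Among Con members of 1 lineage, both were found in 3.80% (1.75 to 7.09) of oligodendrocyte-like, 5.56% (2.07 to 11.7) of endothelial-like, 8.70% (4.84 to 14.2) of OPC/COP-like and 11.1% (3.11 to 26.1) of astrocyte/ependymal-like members. In the band the same groups stood at 3.03%, 0.885%, 2.08% and 2.13%. OPC/COP-like members thus lay above their band by intervals that do not overlap (upper bound 3.26%), whereas those of the other groups overlap. Among Con members with 2 lineages, 19 of 102 with the astrocyte or ependymal and oligodendrocyte pair had both (18.6%, 11.6 to 27.6), 7 of 36 with the oligodendrocyte and myeloid pair (19.4%, 8.19 to 36.0) and 4 of 30 with the oligodendrocyte and endothelial pair (13.3%, 3.76 to 30.7). A Y gene without Xist was seen in 21.1% of Con members, Xist without a Y gene in 51.8%, and neither in 17.7%, so a pair of cells of the same sex, or with no UMI of these genes, is not seen by this measure. Free RNA in the droplets was not modelled, and its part in these shares was not tested.

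Cycling barcodes were a smaller share of the members than of the band at 5000 UMIs per barcode, by intervals that overlap in the Con library. A barcode was called cycling with UMIs of at least 3 of 20 G2 and mitosis genes or at least 4 of 20 S phase genes. This held for 132 SMA members (28.8%, 24.7 to 33.1) and 217 Con members (26.6%, 23.6 to 29.7), against 38.0% (35.2 to 40.8) and 31.1% (29.0 to 33.3) of the band. The order turned under other settings. Without thinning the share was 44.8% in Con members and 39.5% in the Con band, and 44.7% and 45.1% in the SMA library. At a mitochondrial limit of 5% it was 37.1% in SMA members and 35.0% in their band. Members over 5000 genes stood at 41.9% (SMA) and 42.2% (Con), above the band of each library. Barcodes with COP markers alone, a stage outside the cycle, gave 1 of 85 SMA (1.18%) and 4 of 276 Con barcodes (1.45%) over all gene numbers at the same 5000 UMIs. Barcodes with erythroid markers alone gave 3 of 30 SMA (10%) and 2 of 40 Con barcodes (5%).

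Within groups the picture was different. Only 5 of 162 SMA (3.09%, 1.01 to 7.06) and 5 of 237 Con (2.11%, 0.688 to 4.85) oligodendrocyte-like members were cycling. Astrocyte/ependymal-like members were cycling in 15 of 26 (57.7%, 36.9 to 76.6) and 20 of 36 (55.6%, 38.1 to 72.1), against 34.0% (27.6 to 40.8) and 30.4% in the band. Endothelial-like members were cycling in 26.5% (12.9 to 44.4) and 49.1% (39.3 to 58.9), against 13.04% and 23.9% (16.4 to 32.8) in the band. In the Con library the intervals of members and band did not overlap for either group (band of astrocyte/ependymal-like barcodes 25.5 to 35.7), and in the SMA library they overlapped for each. OPC/COP-like members were cycling in 55.6% (43.4 to 67.3) and 29.2% (22.3 to 36.9), against 49.8% and 33.0%. Split by class, 33 of 36 SMA members with OPC markers only were cycling (91.7%, 77.5 to 98.2) and 27 of 31 Con members (87.1%, 70.2 to 96.4), against 77.9% (72.9 to 82.4) and 74.4% (69.5 to 78.9) in the band, with intervals that overlap. Of members with OPC and COP markers, 7 of 19 SMA (36.8%, 16.3 to 61.6) and 17 of 56 Con (30.4%, 18.8 to 44.1) were cycling, against 2 of 123 (1.63%, 0.198 to 5.75) and 26 of 352 (7.39%, 4.88 to 10.6) in the band, with intervals that do not overlap. With COP markers only 0 of 17 and 3 of 74 were.

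**Figure D4:**
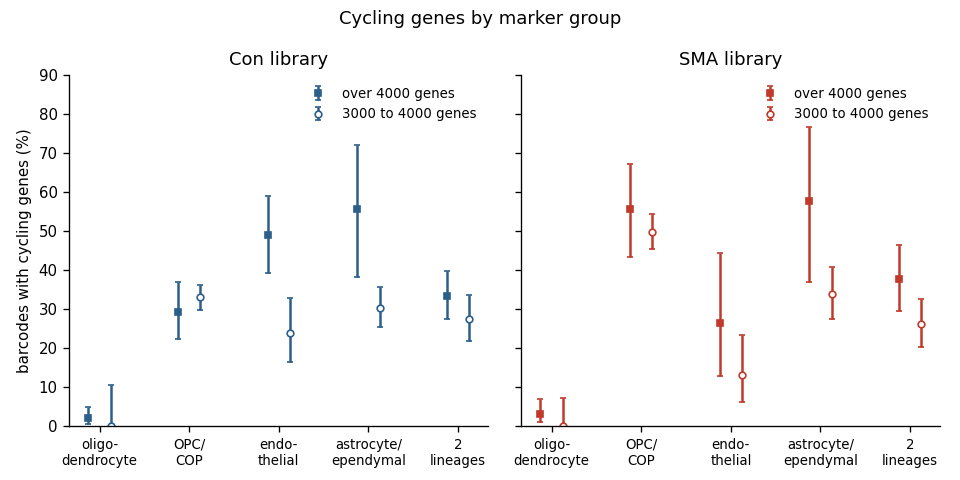
Share of barcodes with cycling genes (%, vertical axis) by marker group (horizontal axis) in the Con library (left) and the SMA library (right), over 4000 genes (filled squares) and at 3000 to 4000 genes (open circles); bars are exact 95% binomial intervals for counting error. Endothelial-like and astrocyte/ependymal-like barcodes stand higher over the limit in both libraries, and oligodendrocyte-like members stand at 2.11% and 3.09%.

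Cycling members held 2 or more lineages more often than the other members, which include most of the oligodendrocyte-like group, by intervals that overlap slightly. In the SMA library 55 of 132 cycling members (41.7%, 33.2 to 50.6) and 92 of 327 others (28.1%, 23.3 to 33.3) held 2 or more lineages, and in the Con library 83 of 217 (38.2%, 31.8 to 45.1) and 171 of 600 (28.5%, 24.9 to 32.3). In the band the order was the opposite, with 12.5% of cycling and 21.3% of other SMA barcodes, and 12.2% and 14.4% in the Con library.

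Summed over members, the RNA held more of the mature oligodendrocyte genes than that of the band. These are values of the barcodes that the gene limit chose, and they are given as a description. Of 9356 genes with at least 200 UMIs over both sets in the SMA library, 375 (4.01%) were past 2-fold higher and 337 (3.60%) past 2-fold lower in members, which is 7.61% in all, and of 10754 in the Con library 413 (3.84%) and 523 (4.86%), or 8.7% in all. All 7 mature oligodendrocyte genes that were read in the SMA library and all 8 in the Con library were past 2-fold higher, with median log2 ratios of 2.70 and 3.38, beside -0.15 and -0.12 over all genes read. The genes highest against the band in both libraries were Slc45a3, a solute carrier (log2 3.09 in SMA), Ermn (3.11), Mog (2.99), Nipal4 (2.83) and Onecut2, a transcription factor (3.14). The lowest were genes of macrophages and their relatives, Wfdc17 (-3.25), Lyz2, the lysozyme of myeloid cells (-2.80), Pf4, a chemokine (-2.49), Cfp, the complement factor properdin (-2.28) and Fcna, a lectin (-1.59). Of the endothelial list, 0 of 9 and 3 of 10 genes were past 2-fold higher (medians 0.56 and 0.90). Of the astrocyte list, 0 of 10 and 4 of 10 were past 2-fold lower (medians -0.79 and -0.90). S phase genes were past 2-fold lower in 9 of 18 and 1 of 19. Fibroblast genes were past 2-fold lower in 2 of 5 and 6 of 7, macrophage genes in 2 of 3 and 4 of 5, Schwann genes in 0 of 4 and 4 of 5, and microglia genes in 3 of 8 and 0 of 8.

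The libraries were then compared within groups that had at least 50 members in each, which were the oligodendrocyte-like, the OPC/COP-like and the 2-lineage members. In oligodendrocyte-like members 16 of 4966 genes with at least 200 UMIs (0.322%) were past 2-fold, 6 of them higher (0.121%) and 10 lower (0.201%) in the SMA library, and the median log2 ratio of all was 0.00. The 8 mature oligodendrocyte genes lay between -0.28 and 0.48, with a median of 0.02, and 0 of 8 were past 2-fold.

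Cdkn1a, the cell cycle inhibitor p21 and a target of the transcription factor p53 (chromosome 17, 29090976 to 29100727, plus strand, protein-coding), was the highest of all genes read in oligodendrocyte-like SMA members. Its 347 UMIs in the SMA library made 96.6 CPM and its 25 in the Con library 4.44 CPM, and the log2 ratio was 4.44 (3.86 to 5.09). The UMIs were spread unevenly. At 5000 UMIs per barcode 21 of 162 SMA members (12.96%, 8.21 to 19.1) and 3 of 237 Con members (1.27%, 0.262 to 3.65) had a Cdkn1a UMI. Over all their UMIs 33 SMA members (20.4%) and 15 Con members (6.33%) had one, at median depths of 21536 and 23289, and the barcode with most had 45. In the 50 oligodendrocyte-like SMA barcodes of the band there were 27 UMIs, 20 of them in 1 barcode, and in the 33 Con barcodes 0.

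**Figure D5:**
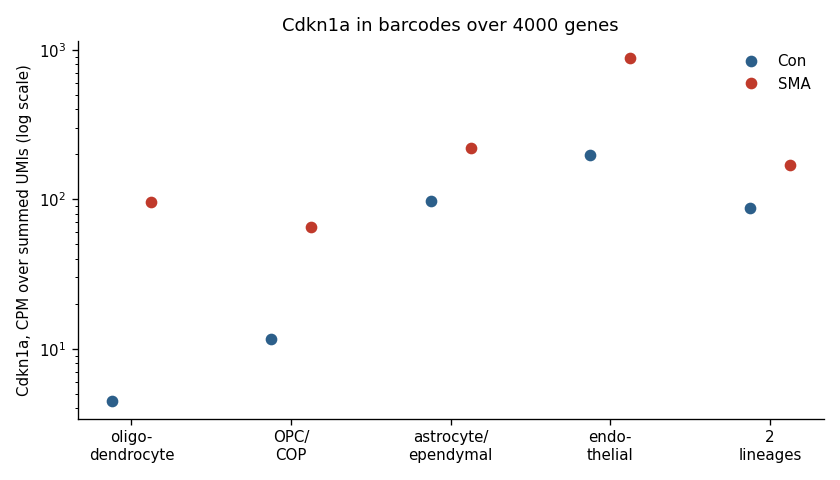
Cdkn1a level (CPM over summed UMIs, vertical axis, log scale) in members of each marker group (horizontal axis) of the Con library (blue) and the SMA library (red), 1 point a group and library, with no replicate. The SMA point lies above the Con point in each of the 5 groups, at 96.6 against 4.44 CPM in oligodendrocyte-like and 885 against 198 CPM in endothelial-like members.

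Cdkn1a was also higher in the other groups of SMA members. It stood at 65.1 against 11.5 CPM in OPC/COP-like members (log2 2.50, 1.88 to 3.14), at 885 against 198 CPM in endothelial-like members (2.16, 2.01 to 2.31), at 221 against 97.9 CPM in astrocyte/ependymal-like members (1.18, 0.69 to 1.67) and at 168 against 87.7 CPM in members with 2 lineages (0.94, 0.74 to 1.15). The endothelial-like and astrocyte/ependymal-like groups had 34 and 26 SMA members and were read for the genes named in other groups only. In the band the same 2 groups stood at log2 1.62 and 1.59, and OPC/COP-like barcodes at 1.36.

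Hist1h4h, a gene of histone H4, came second in oligodendrocyte-like members, at 105 against 43.0 CPM (log2 1.29, 1.05 to 1.53), and was found at 5000 UMIs in 38.9% of SMA and 17.3% of Con members. It stood at 193 against 4.59 CPM in endothelial-like members, with 172 and 15 UMIs (log2 5.40, 4.64 to 6.27), at 55.9 against 1.66 CPM in astrocyte/ependymal-like members, with 24 UMIs and 1 (5.08, 2.46 to 10.44), at 16.1 against 7.21 CPM in OPC/COP-like members, with 18 and 20 UMIs (1.15, 0.15 to 2.15), and at 64.9 against 8.20 CPM in members with 2 lineages (2.98, 2.45 to 3.55). Histone genes of this cluster are near-identical in part, and reads may have been divided among them. Hprt, an enzyme of purine salvage on the X chromosome (52988137 to 53021659, plus strand), stood at 236 against 105 CPM in oligodendrocyte-like members (log2 1.17, 1.02 to 1.33), at 180 against 106 CPM in OPC/COP-like members (0.76, 0.49 to 1.02) at 177 against 61.4 CPM in astrocyte/ependymal-like members (1.53, 0.94 to 2.14), at 241 against 150.3 CPM in members with 2 lineages (0.68, 0.52 to 0.84) and at 337 against 303 CPM in endothelial-like members (0.15, -0.04 to 0.34). It was found at 5000 UMIs in 66.0% of SMA and 40.9% of Con oligodendrocyte-like members. Targeted mouse alleles can carry an Hprt sequence as a selection cassette. Whether the Smn1 allele of these mice does is not given in the sources used here, and its part in the Hprt counts was not tested.

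The libraries differed in the sex of the pooled cells as far as Xist and Y genes show it, with Y genes at 187 CPM in SMA and 89.5 CPM in Con members, so Xist is not read as a difference between SMA and Con. Ddx3y and Eif2s3y, the Y genes with at least 200 UMIs, stood at log2 1.12 and 0.87 in oligodendrocyte-like, 1.06 and 1.06 in OPC/COP-like and 1.35 and 1.30 in 2-lineage members. Among the lowest genes in oligodendrocyte-like SMA members were Xist (5.29 against 349 CPM, log2 -6.04) and Hba-a2, a gene of the alpha chain of haemoglobin (20.0 against 76.0 CPM, -1.92). Of the 428 Hba-a2 UMIs in Con members 71 lay in 1 barcode. Red cells hold much haemoglobin RNA, and the part of free RNA or of a second cell in these values was not tested.

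In OPC/COP-like members 72 of 3230 genes (2.23%) were past 2-fold, 46 higher and 26 lower in the SMA library. Among the genes with at least 200 UMIs over both libraries, highest were Hist1h2ap, a histone H2A gene (114 against 29.2 CPM, log2 1.97, 1.55 to 2.39), Ifitm3, an interferon-induced membrane protein (101 against 32.8 CPM, 1.62) and Mt3, a metal-binding metallothionein of the nervous system (305 against 105 CPM, 1.53, 1.31 to 1.76). Ifitm3 was found in a like share of both, 16.7% and 16.8% over all UMIs, whereas Mt3 was found at 5000 UMIs in 69.4% and 31.7%. Lowest were Xist, with 0 and 1510 UMIs (0 against 544 CPM, with an upper 95% limit of -7.37 on the log2 ratio), Trf, the iron carrier transferrin, which oligodendrocytes make as they mature (29.4 against 111 CPM, -1.91), and Lrrc73 (40.1 against 119 CPM, -1.57). Of the marker lists, 0 of 8 OPC genes were past 2-fold (median 0.86), 2 of 8 COP genes (median -0.73) and 2 of 5 mature oligodendrocyte genes (median -0.95) were past 2-fold lower, and 4 of 13 G2 and mitosis genes were past 2-fold higher (median 0.58), where 1.42% of all genes read were past 2-fold higher, 0.805% past 2-fold lower and the median was 0.03. The stages of the lineage were unequally represented in the libraries, as given above, and the libraries were not compared within a stage.

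In members with 2 lineages 39 of 5109 genes (0.763%) were past 2-fold, 13 higher (0.254%) and 26 lower. Among those genes, which all have at least 200 UMIs over both libraries, the highest were histone genes, Hist1h1c, a linker histone (163 against 44.4 CPM, log2 1.88, 1.63 to 2.13), Hist1h4i (114 against 32.8 CPM, 1.80) and Hist1h2bc (478 against 149 CPM, 1.68, 1.54 to 1.82). Hist1h1c was found at 5000 UMIs in 37.8% of SMA and 18.8% of Con members. The lowest were Xist (-10.53), Pf4 (1 against 229 UMIs, -6.94, -12.25 to -4.45) and Mfap4, an extracellular matrix gene of fibroblasts (12.7 against 127 CPM, -3.32). Pf4 was found in 6 Con members, 1 of which held 83 UMIs, and Mfap4 in 23, 1 of which held 146. In SMA members Mfap4 had 30 UMIs in 4 barcodes, 27 of them in 1. Of the lists with at least 4 genes read, 3 of 4 fibroblast genes (median -1.49) and 5 of 8 COP genes (median -1.04) were past 2-fold lower, where 0.509% of all genes read were, and 1 of 4 ependymal genes was past 2-fold higher (median 0.94). The libraries differed in the makeup of pairs and were not compared within a pair.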

How the data were processed

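Whole spinal cord of 1 SMA and 1 Con pool of mice at postnatal day 4 was measured by 10x Genomics 3′ single-cell RNA-seq. The deposited files hold raw UMI counts per gene and barcode. The authors made these counts with Cell Ranger, without correction for depth. The headers name version 4.0.0, and the study's methods name another. The submitters' processing notes name the build mm10 and Seurat 3.2.2. Barcodes had been called as cells before deposit, and the authors' later limits on genes and mitochondrial share were not applied in the files. GENCODE M21 (GRCm38) gave the gene positions, and 32235 of 32285 identifiers were found in it.

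Groups came from the sample labels. The members and lists were chosen with earlier results of these data known. Barcodes of at least 5000 UMIs were thinned to 5000 UMIs without replacement (seed 20), which left out no member and no barcode of the band, and were read against 16 class lists of 8 to 10 markers in 9 lineages. The class references rest on 2 barcodes for neutrophils and for lymphocytes, 6 for monocytes, 12 for macrophages and 30 for oligodendrocytes, and on 53 or more for the others. A droplet with 2 cells of 1 lineage, such as an OPC and an oligodendrocyte, counts as 1 lineage. No doublet caller was run. Shares have exact Clopper-Pearson intervals and ratios of summed UMIs exact conditional binomial intervals, at the 95% level, and a count of 0 was given a limit of 3 counts. Summed UMIs are given as CPM. With 1 library per group no test was made, and genes with at least 200 UMIs over both sides are called past 2-fold by size alone.

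Genes named were, for each list, those with most UMIs in members, then Xist and the Y genes, the 5 highest and 5 lowest against barcodes of 3000 to 4000 genes, and the 3 highest and 3 lowest between libraries in each group of at least 50 members per library. A gene that this rule chose is not reported here. The genes outside the lists that led a group, the single barcodes shown, and the reading of Cdkn1a, Hist1h4h and Hprt in further groups were chosen after their values were seen. The calls were tested on simulated data made of summed pairs of barcodes, and the ratios on genes changed by known folds. The outcome of these runs is not given here. Alternatives varied the thinning, the marker limits, the gene and mitochondrial limits, the shared barcodes, the cycling rule and the count minimum. Python 3.11.15, numpy 2.4.6, scipy 1.17.1 and pandas 2.3.3 were used.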

Additional observations from a re-analysis of the deposited data

Results flagged for a closer look

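The share of barcodes holding microglia markers changed in opposite directions across the gene limit in the 2 libraries. Members minus barcodes of 3000 to 4000 genes differed by -1.76 percentage points in the SMA library (12.9% against 14.6%) and by 1.06 percentage points in the Con library (8.69% against 7.63%). The intervals of members and band overlapped in each library, and the difference between the libraries was not tested.

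Xist stood at 421.7 CPM in the 816 SMA barcodes that are shared with Con members and are used in no comparison, beside 2.23 CPM in the SMA members and 439.8 CPM in the Con members. Of 806 such pairs that could be compared, 708 (87.8%) held the same lineages in both copies, at a median of 3490 UMIs in the SMA copy. Among them, 195 of the 260 pairs with 2 or more lineages in the Con copy also held 2 or more in the SMA copy.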

How the results depend on the processing

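With 1 library per group no replicate could be left out. No paired analysis was possible because each group had 1 library. Of 234 alternative values, 157 moved by less than their counting interval, 77 moved by more and 0 changed sign. The order of members and band in cycling shares did turn under some settings, as given below. The settings on oligodendrocyte-like and endothelial-like shares and on barcodes of 3000 to 4000 genes (the band), a second thinning draw and the comparison with barcodes under the limit were chosen after seeing the data. Pairs below are SMA, then Con, and the cause was not tested.

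The share with 2 or more lineages was 38.6% and 37.7% (band 23.6% and 19.3%) at a limit of 10% of the class reference, and 12.2% and 11.9% (band 8.64% and 6.07%) at 40%, and stayed above the band at each. With at least 2 markers the Con band stood at 17.3%. With at least 4 it was 27.5% in Con members and 15.3% and 11.9% in the bands. Without each list's most abundant marker the SMA band was 15.8% and the oligodendrocyte-like share of Con members 25.7%. Barcodes of 2000 to 3000 genes gave 4.42% and 5.05% in place of the band.

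At a limit of 5000 genes the shares were 45.2% and 38.0% for 2 or more lineages, 25.8% and 22.9% for oligodendrocyte-like, 14.5% and 27.6% for endothelial-like and 41.9% and 42.2% for cycling members. That limit removed 7.34% and 15.7% of deep oligodendrocyte-like barcodes, and Xist with a Y gene was found in 0 SMA members and 10.1% of Con members of 1 lineage. At a mitochondrial limit of 5% the shares were 39.5% (SMA, 2 or more lineages), 24.3% and 22.4% (oligodendrocyte-like), 13.3% and 19.7% (endothelial-like) and 37.1% and 31.1% (cycling; SMA band 35.0%), so cycling stood above the band there in SMA. It left 63.7% of deep oligodendrocyte-like SMA barcodes over 4000 genes, 0 SMA members with Xist and a Y gene, and 4.10% of Con members of 1 lineage. Keeping shared SMA barcodes gave 65.3% for the former.

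Cycling shares were 24.2% and 21.2% (band 33.6% and 26.5%) at 3000 UMIs, 44.7% and 44.8% (band 45.1% and 39.5%) without thinning, and 24.0% and 21.7% (band 29.2% and 22.1%) by the G2 and mitosis list alone. Without thinning the Con members passed their band. Xist with a Y gene was found in 0 SMA members at 3000 UMIs and in the second draw. In Con members it was 9.91% (2 or more lineages) at 3000 UMIs, and without thinning 15.8% (1 lineage) and 41.3%. Without thinning 75.2% of deep oligodendrocyte-like Con barcodes lay over 4000 genes.

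Against barcodes under the limit, the SMA levels that moved were 53.9% (astrocyte genes) and 59.8% (OPC genes) in the astrocyte and OPC pair and 56.3% for microglia genes in the astrocyte and microglia pair. In Con they were 59.7% and 55.0% (astrocyte and OPC), 33.6% and 114.4% (astrocyte and COP), 46.3% and 50.3% (OPC and microglia), and 87.0% and 46.2% (COP and endothelial). With 15 genes a class, COP genes in the astrocyte and COP pair stood at 63.4% and endothelial genes in the OPC and endothelial pair at 68.2%. With a minimum of 50 UMIs, genes past 2-fold were 1330 and 1541 against the band (712 and 936 at 200 UMIs), and between libraries 98 in oligodendrocyte-like, 314 in OPC/COP-like and 215 in 2-lineage members (16, 72 and 39). Fold calls of genes with few UMIs thus rest on little depth. With each barcode weighted equally, every gene named between libraries kept its direction, and Mfap4 alone moved, to -4.00.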

Other observations

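Neutrophil and lymphocyte calls were not read, since each rests on a reference of 2 barcodes. The neutrophil list summed to 38.9 CPM in SMA members and 20.3 CPM in SMA barcodes of 3000 to 4000 genes, and to 3.17 and 8.87 CPM in the Con library. In the SMA library S100a9, an antimicrobial calcium-binding protein, had 182 UMIs in members and 123 in those barcodes, at 20.3 and 9.64 CPM. Of the 182, 2 lay in oligodendrocyte-like and 17 in 2-lineage members, and 0 in OPC/COP-like, endothelial-like and astrocyte/ependymal-like members. Most thus lay in the few remaining members and are not a level of the members in general. The lymphocyte list summed to 3.57 and 10.03 CPM in the SMA library and to 4.32 and 7.05 CPM in the Con library. Ependymal markers were held by 39 SMA members (8.50%, 6.11 to 11.4) and 25 Con members (3.06%, 1.99 to 4.48), alone or with other classes, and by 8.97% and 3.96% of barcodes of 3000 to 4000 genes. Mature oligodendrocyte markers, alone or with other lineages, were held by 177 SMA members (38.6%) and 257 Con members (31.5%). Endothelial markers, counted in the same way, were held by 62 (13.5%, 10.5 to 17.0) and 169 (20.7%, 18.0 to 23.6).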
